A study of Mus musculus with 18 samples.

Results

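The cohesin subunit RAD21 and the cohesin loader NIPBL were compared in the same control cells through their deposited peak lists, 2 of RAD21 and 2 of NIPBL, out of 14 lists in the series. Peaks of the 4 lists that overlapped by at least 1 bp were merged into 221036 regions on the 19 autosomes and X. Of these, 30961 regions (14.01%) held a peak of both RAD21 lists and none of NIPBL and are called RAD21-only, 17620 (7.97%) held a peak of both NIPBL lists and none of RAD21 and are called NIPBL-only, and 6101 (2.76%) held a peak of all 4 lists and are called shared. The remaining 166354 regions rested on 1 list of a protein or on uneven combinations.

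Cohesin is a ring-shaped complex that holds DNA and extrudes it into loops. NIPBL, with its partner MAU2, loads the ring onto chromatin and stimulates its ATPase, while the zinc finger protein CTCF stops the moving ring at oriented binding sites. RAD21 is the subunit that closes the ring. Cohesin maps best to CTCF sites in many cell types, and NIPBL maps have often been richest at active promoters. In pro-B cells, the stage at which immunoglobulin heavy chain genes are assembled, loop extrusion brings distant gene segments to the recombination centre.

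All cells came from 1 mouse pro-B line, transformed with v-Abl, with the genotype JH-del, dCas9 expressing, Emu-Bcl2 and RAG2 deficient, so the controls too lacked the JH segments and the RAG2 recombinase subunit and carried a Bcl2 transgene under the Emu enhancer. dCas9 is a form of Cas9 with no cutting activity that guide RNAs bring to DNA, and the controls expressed no guide RNA. Every culture was treated with 3 uM STI-571, an inhibitor of the Abl kinase, for 4 days. The other 10 lists came from the same line: RAD21 (n = 2) and NIPBL (n = 2) in block cells that also expressed the Sg1-sgRNA, RAD21 in Ig2bwt cells with the control genotype (n = 3), and RAD21 in cells that carried Ig2b-del/del (n = 3). Nothing in the labels says whether replicates came from separate cultures or clones, so the spread between lists may be technical.

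The 2 RAD21 lists differed from each other. Replicate 1 held 58837 peaks over 15.9 Mb with a median width of 225 bp, and replicate 2 held 82566 peaks over 34.4 Mb with a median width of 305 bp. The NIPBL lists were closer, with 94705 and 91541 peaks over 22.5 and 21.6 Mb and median widths of 142 and 146 bp. At the narrowest width in the lists, 51 bp, lay 22.9% and 23.8% of NIPBL peaks against 3.47% and 2.82% of RAD21 peaks. NIPBL calls were also weaker by the authors' −log10 q, with medians of 1.58 and 1.82 against 3.72 and 3.43 for RAD21. A −log10 q of at least 3 was reached by 14.1% and 16.5% of NIPBL peaks and by 59.3% and 56.2% of RAD21 peaks. Read depth is unknown, so a site without a peak may be one that was not detectable at the depth of that library. Of the 56873 regions of RAD21 replicate 1, 73.0% were also in replicate 2, while 51.8% of the 80081 regions of replicate 2 were in replicate 1. Of the NIPBL regions, 34.9% of replicate 1 (91750 regions) and 36.0% of replicate 2 (88933 regions) were in the other NIPBL list. Most NIPBL peaks therefore stood in 1 list and entered none of the 3 classes.

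The following sequences (mm9) show what the classes looked like at the base level, and the searches for motifs and repeats were run on such sequence. The first set holds RAD21-only and shared sites over 5 kb from any annotated start with a single match of the CTCF core, a 12-letter consensus of the CTCF motif. They were the highest in their class by mean rank of fold with a middle found at fewer than 10 places in the genome. Each is 100 bases centred on the core, printed 5′ to 3′ along the strand of the core, with the core in capitals.
RAD21-only, 16112 bp downstream of the start of Alg14, chr3:121010641-121010740, + strand: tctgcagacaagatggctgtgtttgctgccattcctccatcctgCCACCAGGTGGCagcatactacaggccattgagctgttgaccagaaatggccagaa
RAD21-only, 72168 bp downstream of the start of Olfr1402, chr3:97142883-97142982, - strand: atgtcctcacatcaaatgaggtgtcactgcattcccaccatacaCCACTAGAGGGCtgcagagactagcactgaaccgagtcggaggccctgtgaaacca
shared, upstream of Lefty2, chr1:182804266-182804365, + strand: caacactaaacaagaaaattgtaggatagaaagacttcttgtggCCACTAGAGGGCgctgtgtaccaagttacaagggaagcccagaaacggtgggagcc
shared, upstream of Gnb1, chr4:154855616-154855715, + strand: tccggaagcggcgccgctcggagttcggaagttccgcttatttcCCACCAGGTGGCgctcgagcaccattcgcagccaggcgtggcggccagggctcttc

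The next set holds the 100 bases just before the start of protein-coding genes whose start lay within 1 kb of a NIPBL-only or a shared region, in the direction of the gene. These genes were the highest by mean rank of fold for which the window held a match of a searched promoter motif and no annotated UTR. Capitals mark those matches, on either strand.
NIPBL-only, Zranb2, chr3:157197024-157197123, + strand, with a GC box (GGGCGG): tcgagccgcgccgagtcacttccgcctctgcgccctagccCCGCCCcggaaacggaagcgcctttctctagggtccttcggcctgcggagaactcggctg
NIPBL-only, Hist1h2ac, chr13:23775818-23775917, - strand, with a TATA box (TATAAA): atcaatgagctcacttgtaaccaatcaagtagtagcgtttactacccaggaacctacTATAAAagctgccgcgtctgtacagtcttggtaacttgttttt
shared, Mterf, chr5:3893934-3894033, - strand, with a cAMP response element or CRE (TGACGTCA) and an ETS site (CCGGAAG): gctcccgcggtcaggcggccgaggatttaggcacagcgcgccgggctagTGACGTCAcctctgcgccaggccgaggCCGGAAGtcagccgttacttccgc

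The last set shows sequence that recurred in NIPBL-only regions far from starts. The first line is 100 bases of the highest-ranked such region that held the most frequent word of 24 bases, which is in capitals, and the other 2 lines are the next most frequent words.
NIPBL-only, upstream of Klhl13, chrX:23098569-23098668, - strand: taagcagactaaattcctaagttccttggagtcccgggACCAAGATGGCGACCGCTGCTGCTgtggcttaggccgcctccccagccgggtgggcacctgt
next word: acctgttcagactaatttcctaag
further word: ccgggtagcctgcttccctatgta

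RAD21-only regions lay mostly away from promoters, and shared regions were the class most often near them. A start, the first base of any annotated transcript, lay within 1 kb of 8.11% of RAD21-only regions (95% Wilson interval 7.81% to 8.42%), 17.8% of NIPBL-only regions (17.3% to 18.4%) and 49.0% of shared regions (47.8% to 50.3%). Windows placed every 20 kb across the genome gave 4.14%, but their distance was taken from the middle base alone. Regions were measured from their edges, so wide regions reach a start more readily. Median widths were 374 bp for RAD21-only, 364 bp for NIPBL-only and 1024 bp for shared regions. The start itself lay inside 1.71% of RAD21-only, 10.97% of NIPBL-only and 42.4% of shared regions. The interval from 1 to 5 kb held 21.5% of RAD21-only, 8.51% of NIPBL-only and 12.5% of shared regions, against 12.3% of genome windows. RAD21-only was thus the class with the largest share just outside promoters. Median distances to a start were 11625 bp for RAD21-only, 22379 bp for NIPBL-only and 1190 bp for shared regions. All such intervals cover counting error over regions only, and not the spread between libraries.

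The NIPBL-only class held 2 kinds of site. The 24 bases at the middle of a NIPBL-only region over 5 kb from a start occurred at a median of 893 places in the genome (n = 12979), and 73.3% of these regions had a middle found at 100 or more places. Genome windows over 5 kb from a start gave 10.7%, and RAD21-only regions as far away gave 4.88%. Within 1 kb of a start the share in NIPBL-only regions was 3.47%. One or more of the 6 most frequent words, which were picked in these same regions, lay in the 400 bp around the middle of 29.8% of the NIPBL-only regions far from starts, in 0 of 21796 RAD21-only regions, in 1 of 2348 shared regions and in 0.225% of genome windows. The words occurred at 4545 to 6936 places in the genome each. How reads from such sequence were placed by the aligner was not given in the sources used here, and its part in these calls was not tested.

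**Figure D1:**
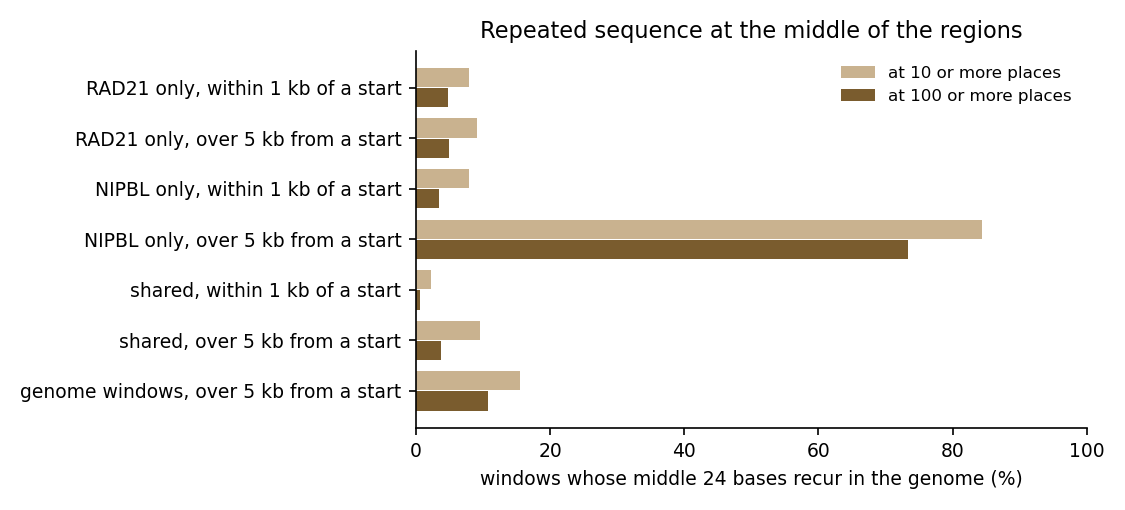
Share of regions (%) whose middle 24 bases occur at 10 or more (light) or 100 or more (dark) places in mm9, for the 3 classes near and far from starts and for genome windows. NIPBL-only regions over 5 kb from a start reach 84.3% and 73.3%, and each of the other classes stays under 10% for 10 or more places.

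Split by this count, the NIPBL-only class changed its position in the genome. The 11848 regions with a middle at 10 or more places (67.2% of the class) lay within 5 kb of a start in 7.64% of cases, and 45.1% were over 50 kb away. The other 5772 lay within 5 kb of a start in 64.7% of cases, with a median distance of 975 bp. The 2 sets were called again at similar rates in the NIPBL block lists, in 61.6% and 75.4% of the repeated set and in 64.3% and 71.2% of the other. Leaving out regions with repeated middles changed the other classes little, with 29.3% of RAD21-only and 63.2% of shared regions within 5 kb of a start, against 29.6% and 61.5% of all. A stricter peak threshold, −log10 q of at least 3, moved the NIPBL-only share within 5 kb of a start from 26.3% to 80.1% and left 4427 regions. The position of the NIPBL-only class is therefore given below separately near and far from starts.

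The sites of highest fold within each class were of different kinds. Fold is the authors' own value for a peak, MACS2's enrichment over background, and it was ranked only within its list. The 6 leading RAD21-only sites were 496 to 1328 bp wide, 5 of them lay over 5 kb from a start, none held a CTCF core, and their nearest genes were Rdh13, Gm8989, Ctnnbip1, Gm8979, Tnfrsf23 and Gopc. At the site in an exon of the retinol dehydrogenase gene Rdh13 (chr7:4378560-4379248) the fold was 15.6 and 24.5 in RAD21 replicates 1 and 2. The 6 leading NIPBL-only sites, nearest to Tnks, Greb1, Gm6404, Gm10110, Plk2 and Kcnh1, were 91 to 103 bp wide and 39130 bp or more from a start. The highest, upstream of Tnks (chr8:36197954-36198055), had a fold of 24.6 and 24.3 in the 2 NIPBL lists. In 5 of these 6 sites, all but the one by Plk2 with 7, the middle occurred at 1735 to 1770 places in the genome. The 6 leading shared sites, nearest to Gm10800, Gm5614, Gm10801, 1700012B15Rik, Gm10722 and Gm17379, included 1 region of 38349 bp, and 5 of the 6 had a peak in all 14 lists. Only 16 regions were in the top 1% by fold of all 4 lists, and 10 of these were in all 14.

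Near starts of protein-coding genes, in a list drawn up after those values were seen, the leading sites looked different. The 6 leading NIPBL-only sites there lay at Hist1h3b, Cacng2, Zranb2, Hist1h2ac, Hist1h2ag and Hist1h2ab, so 4 of 6 were replication-dependent histone genes, which make the core histones of dividing cells. The region at Hist1h3b (chr13:23844189-23844653, exonic, 285 bp downstream of the start at its middle) had a fold of 15.1 and 15.0 in the NIPBL lists. The 4 histone middles occurred at 12 to 21 places in the genome, since these genes are near-identical copies. The leading shared sites lay at Mterf, Snx18, Gm9897, Hook2, 4632404H12Rik and Irak2, all 6 in all 14 lists, and 4 of the 6 held a CTCF core. At Mterf (chr5:3893312-3894306), which encodes a mitochondrial transcription termination factor, the fold was 12.0 and 17.8 in the RAD21 lists and 16.3 and 12.9 in the NIPBL lists. At Snx18 (chr13:114408084-114409166), a sorting nexin gene, it was 12.3 and 17.5 for RAD21 and 10.2 and 7.54 for NIPBL. The leading RAD21-only sites near starts belonged to Zkscan17, Fam19a2, Tcea2, Klhdc9, Gprc5b and Sp2, and the middles of 5 of the 6 were over 400 bp from the start.

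At gene starts, NIPBL lists covered far more promoters than RAD21 replicate 1 and more than replicate 2. Over 22350 protein-coding genes, the start base lay inside a peak in 40.1% and 37.3% of genes for NIPBL, in 25.6% for RAD21 replicate 2 and in 3.26% for RAD21 replicate 1. At 5 kb upstream the shares were 1.53% and 1.15% for NIPBL and 2.67% and 1.34% for RAD21 replicates 2 and 1. The RAD21 lists did not overlap the NIPBL lists at the start, but they differed from each other more than RAD21 replicate 2 differed from NIPBL. At 12717 CTCF cores in the genome the order was the reverse, and there the RAD21 lists agreed closely with each other. The core lay inside a peak in 52.6% and 55.1% of cases for RAD21 and in 6.39% and 4.84% for NIPBL.

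**Figure D2:**
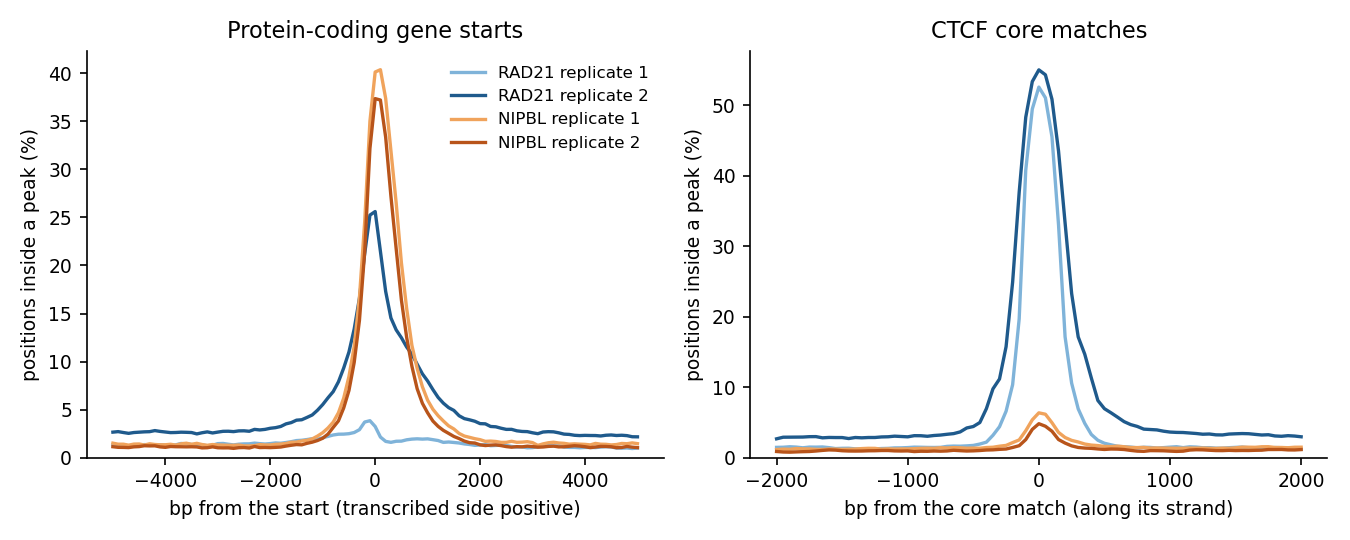
Share of positions (%) inside a peak by distance in bp from protein-coding gene starts (left) and from CTCF core matches (right), 1 line per control list. NIPBL lists peak at about 40% and 37% at starts while RAD21 replicate 1 stays under 4%, and both RAD21 lists exceed 50% at CTCF cores while both NIPBL lists stay under 7%.

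How much of the NIPBL signal at promoters was shared with RAD21 depended on the RAD21 library. Of 11954 regions in both NIPBL lists within 1 kb of a start, 25.03% had a peak in both RAD21 lists, 48.5% in replicate 2 alone, 0.192% in replicate 1 alone and 26.3% in neither. Of 17067 such regions over 5 kb from a start, 13.8% had a peak in both RAD21 lists, 8.94% in replicate 2 alone, 1.26% in replicate 1 alone and 76.0% in neither, a set in which repeated middles prevail as above. Without RAD21 replicate 1 the shared class grew from 6101 to 14129 regions, of which 72.6% lay within 5 kb of a start, against 57.8% without RAD21 replicate 2. Seen from RAD21, 49.0% of 6107 regions in both RAD21 lists within 1 kb of a start were in both NIPBL lists, against 8.69% of 27032 regions over 5 kb away.

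**Figure D3:**
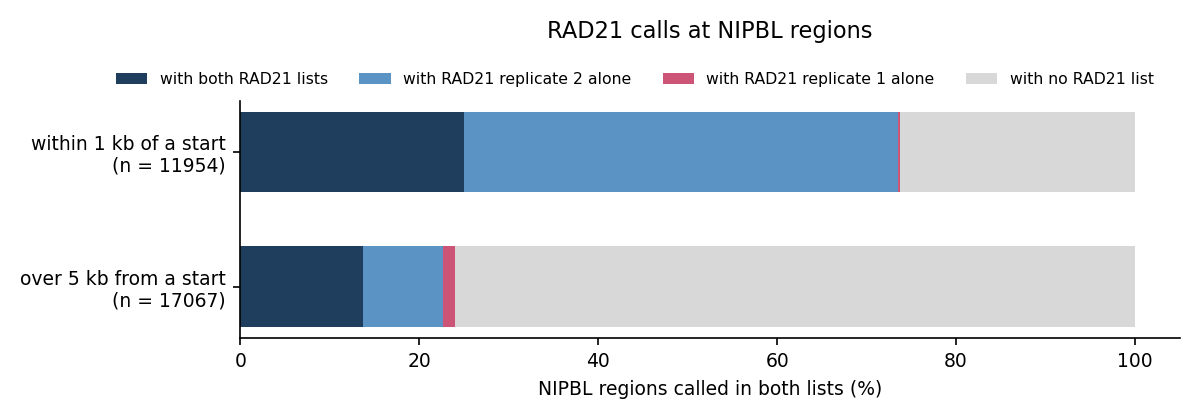
Regions called in both NIPBL lists, near and far from starts, divided by their RAD21 calls (% of regions). Near starts 48.5% had a RAD21 peak in replicate 2 alone and 0.192% in replicate 1 alone, and far from starts 76.0% had none.

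The 8021 regions called in RAD21 replicate 2 and both NIPBL lists but not in RAD21 replicate 1 were mostly promoters, with 72.3% within 1 kb of a start. Their peaks ranked low in RAD21 replicate 2, at a median percentile of 39.1 by fold, and high in the NIPBL lists, at 92.0 and 88.0. The mirror set, called in RAD21 replicate 1 and both NIPBL lists but not in RAD21 replicate 2, held 270 regions, and 8.52% of them lay within 1 kb of a start. In lists that had no part in defining these sets, the 8021 regions were called in 26.3% of cases in RAD21 block replicate 1, in 87.1% in RAD21 block replicate 2 and in 19.8% to 73.2% in the 6 Ig2b lists. In the dCas9 experiment the peak names of the RAD21 replicate 1 lists follow 1 style and those of the replicate 2 lists another. The part of that difference in these splits was not tested.

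The classes were compared with calls in lists they were not made from. RAD21-only regions had a peak in 67.6% to 96.3% of cases in each of the 8 other RAD21 lists, and 57.8% were called in all 8. In the NIPBL block lists they had a peak in 6.27% and 9.59%. NIPBL-only regions had a peak in 62.5% and 74.0% in the NIPBL block lists and in 0.397% to 3.80% in the other RAD21 lists. Shared regions were called in 83.1% to 98.9% in the other RAD21 lists and in 94.8% and 94.9% in the NIPBL block lists, and 4364 of the 6101 had a peak in all 14 lists. NIPBL-only regions within 1 kb of a start were called in 15.8% of cases in RAD21 block replicate 2, against 0.894% of those over 5 kb away. These lists share the line with the controls and, for the block lists, the antibody and caller.

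**Figure D4:**
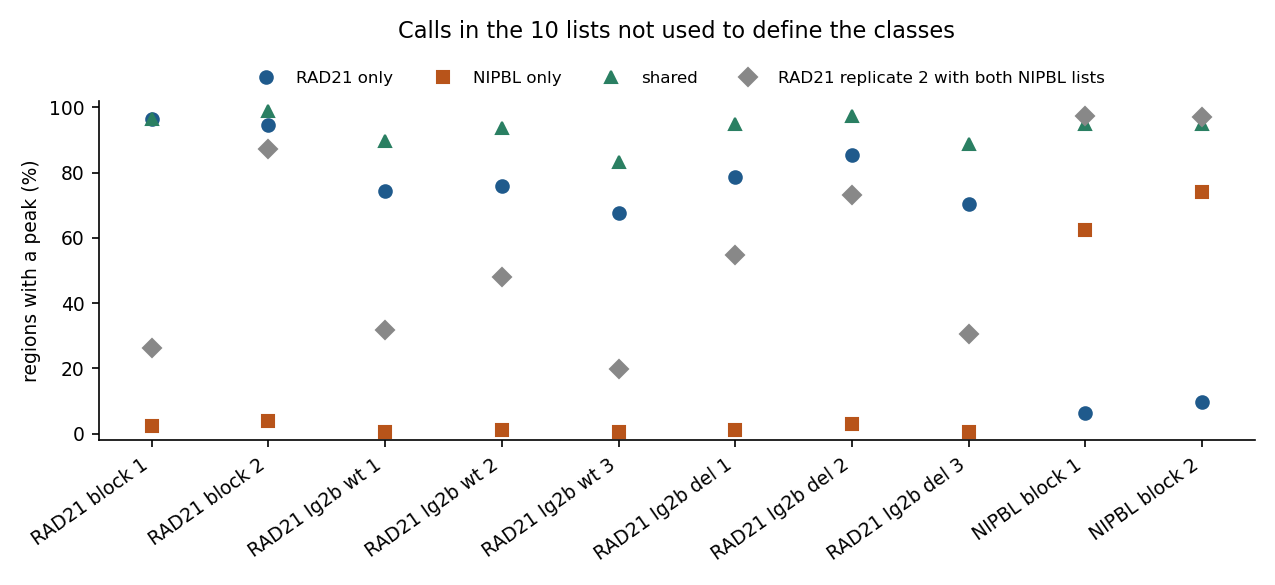
Share of regions (%) of each class with a peak in each of the 10 lists outside the definition (8 of RAD21, 2 of NIPBL). RAD21-only and shared regions stay above 67% in all RAD21 lists, NIPBL-only regions stay under 4% there, and the regions of RAD21 replicate 2 with both NIPBL lists range from 19.8% to 87.1%.

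By rank of fold, shared sites stood out in NIPBL more than in RAD21, while by width the largest contrast was in RAD21 replicate 2. Widths and ranks come from the calls that set the classes and are given without a test. The bp covered in a region by a list had medians of 323 and 832 in shared against 263 and 351 in RAD21-only regions for RAD21 replicates 1 and 2. For NIPBL replicates 1 and 2 the medians were 433 and 363 bp in shared against 237 and 257 bp in NIPBL-only regions. By percentile of fold, shared regions had medians of 56.4 and 75.2 in the RAD21 lists, against 60.2 and 73.9 for RAD21-only regions, so RAD21 rank hardly separated the 2 classes. In the NIPBL lists shared regions had medians of 88.5 and 83.8, against 63.3 and 63.2 for NIPBL-only regions. Shared regions within 1 kb of a start reached 93.7 and 91.3 in NIPBL, and those over 5 kb away reached 76.6 and 67.8. NIPBL-only regions had 74.6 and 65.5 within 1 kb, and 61.9 and 63.6 over 5 kb away. Over 5 kb away, NIPBL covered a median of 264 and 221 bp in shared against 223 and 258 bp in NIPBL-only regions. The width contrast was thus reversed there in replicate 2. The rank of a region is that of its highest peak, which favours wide regions that hold several peaks.

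Calls of the other protein were then counted with regions ordered by mean percentile of fold and cut into 10 groups of equal size. Of the regions in both NIPBL lists, 10.3% of the lowest group and 38.3% of the highest group were in both RAD21 lists. Over 5 kb from a start the shares were 9.46% (215 of 2273; 95% Wilson interval 8.32% to 10.7%) and 56.2% (226 of 402; 51.3% to 61.0%). Repeated middles, at 10 or more places, made up 62.7% of that lowest group and 24.3% of the highest, and with them left out the shares were 23.5% (196 of 834) and 62.9% (188 of 299). Of the regions in both RAD21 lists, 9.06% of the lowest group, 15.6% of the fifth and 13.1% of the highest group were in both NIPBL lists. Over 5 kb from a start these RAD21 shares were 4.35% (119 of 2737), 8.38% and 10.9% (306 of 2801). Within 1 kb of a start they were 39.0%, 51.8% and 31.2%, so the highest RAD21 peaks at promoters were not the ones most often shared.

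**Figure D5:**
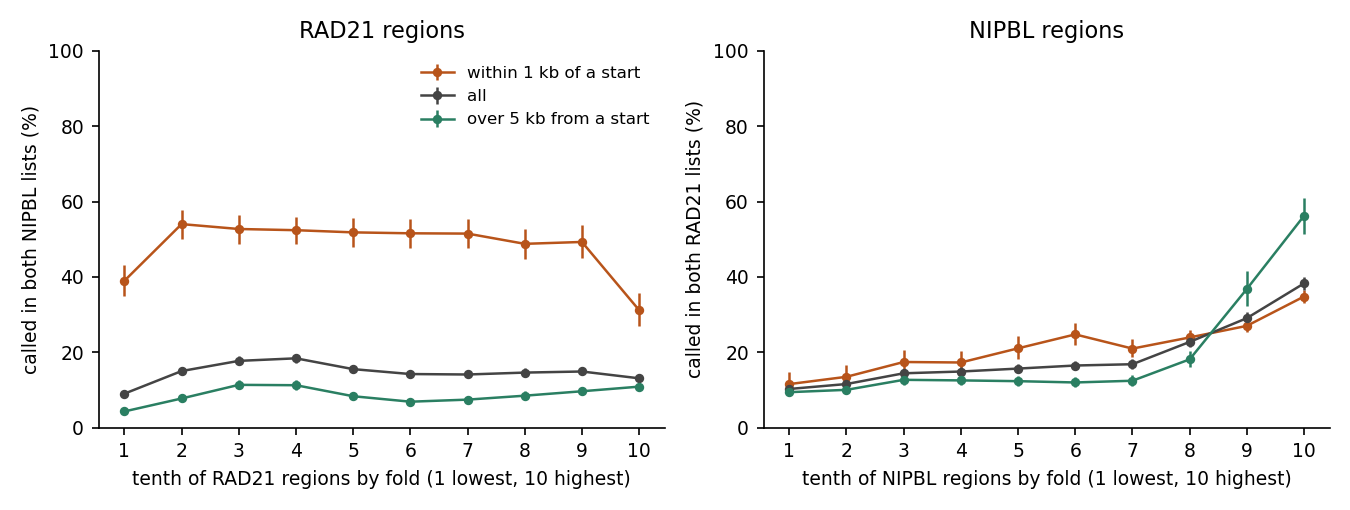
Share of regions (%, with 95% Wilson intervals) called in both lists of the other protein, in 10 equal groups by mean fold percentile, for RAD21 regions (left) and NIPBL regions (right), split by distance to a start. Far from starts the share goes from 9.46% to 56.2% for NIPBL regions and from 4.35% to 10.9% for RAD21 regions, and RAD21 regions within 1 kb of a start go from 39.0% to 31.2%.

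The CTCF core was more frequent in RAD21-only and shared regions than in NIPBL-only regions, where it was nearly missing. A core lay in 16.4% of RAD21-only regions (15.9% to 16.8%), in 10.5% of shared regions (9.76% to 11.3%) and in 0.0851% of NIPBL-only regions (15 of 17620; 0.0516% to 0.140%). The shares moved beyond these intervals with the libraries: without RAD21 replicate 1 they were 9.32% in RAD21-only and 4.78% in shared regions, and in NIPBL-only regions they ran from 0.0372% without NIPBL replicate 1 to 0.184% without RAD21 replicate 2. In windows of equal length, 400 bp around the middle, the shares were 15.7%, 6.34% and 0.0681%, against 0.211% of genome windows and 0.595% of windows at protein-coding starts. The 8021 regions called in RAD21 replicate 2 and both NIPBL lists but not in RAD21 replicate 1 gave 0.249%. That share was near the one of genome windows, so the core was not frequent wherever the 2 proteins met. Of all 12717 cores, 40.2% lay in RAD21-only, 5.38% in shared and 0.118% in NIPBL-only regions, and 41.9% lay in no region. RAD21 peaks sat off the core in 1 direction. In RAD21-only regions with 1 core the peak centre lay a median of 17.5 and 19 bp past the core along its strand, and on that side in 71.7% and 70.2% of 5020 regions, in replicates 1 and 2. The direction is that of the core as printed in the sequences above.

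Base composition followed the proteins as well. The 400 bp around the middle had a mean GC content of 44.1% in RAD21-only, 57.7% in NIPBL-only and 56.6% in shared regions, against 41.8% in genome windows and 57.3% at protein-coding starts. Most of the promoter motifs searched were more frequent near starts where NIPBL was present than in RAD21-only windows there. The GC box (GGGCGG), read by SP1-family factors, lay in 67.2% of NIPBL-only and 58.4% of shared windows within 1 kb of a start, in 6.61% of RAD21-only windows there and in 49.6% of windows at all protein-coding starts. The YY1 motif (ATGGCGG) lay in 11.3%, 9.36% and 1.23% of the same 3 sets and in 8.47% of starts. The ETS motif (CCGGAAG) lay in 13.1%, 13.9% and 1.95%, and in 12.9% of starts. A part of the NRF1 motif (GCATGCGC) lay in 3.09%, 3.44% and 0.318%, and the CRE in 2.07%, 1.67% and 0.318%. Both were below their shares of all starts, 3.55% and 2.43%. The TATA box went the other way, in 3.41%, 7.15% and 23.2%, and in 13.7% of starts. It lay in 34.4% of genome windows, so all 3 sets were below the genome share. In NIPBL-only windows over 5 kb from a start, where repeated sequence prevailed, ETS reached 13.5% and the CRE 4.12%, against 0.992% and 0.214% of genome windows as far away. The RUNX motif (TGTGGTT), read by RUNX1, a factor of blood cells, lay in 17.0% of RAD21-only windows, 8.46% of shared and 2.36% of NIPBL-only windows, against 9.14% of genome windows. The EBF motif (CCCNNGGG) had the opposite order, in 7.97%, 22.5% and 23.8% of these classes, against 6.20% of genome windows. So did the E-box (CAGGTG), in 28.6%, 32.7% and 39.4%, against 22.1%. Windows at protein-coding starts held RUNX in 6.17%, EBF in 21.1% and the E-box in 27.9%. NIPBL-only windows held EBF in 31.4% within 1 kb of a start and in 22.4% over 5 kb away. For the E-box these shares were 32.4% and 41.0%, the second where repeated sequence prevailed. The classes differ in GC content and in their share near starts, and the part of this in the motif shares was not tested. Both strands were searched and motifs may overlap each other. A match is a description of these windows and no evidence of binding.

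At promoters the median centres of the 2 proteins differed, but their spreads overlapped widely. For starts of protein-coding genes with a shared region, the middle of the NIPBL cover lay a median of 127 and 116 bp downstream of the start in the 2 NIPBL lists, and of the RAD21 cover 64 bp upstream in replicate 1 and 57.5 bp downstream in replicate 2 (2094 regions). NIPBL-only regions had medians of 138 and 129 bp downstream, with 76.4% and 74.1% of 2009 regions on the transcribed side. RAD21-only regions within 1 kb lay a median of 299 and 315 bp upstream, with 36.5% of 827 regions downstream in both lists. The medians of the 2 RAD21 lists thus bracket the start in shared regions, and the NIPBL medians lie downstream in both classes with NIPBL. In shared regions the quartiles, upstream negative, were -344 to 479 and -181 to 389.5 bp for RAD21. For NIPBL they were 0.55 to 303 and -15 to 281 bp, inside those of RAD21. RAD21-only regions had quartiles of -867 to 664.5 and -853 to 653 bp, on both sides of the start.

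Across chromosomes, RAD21-only regions ran from 7.45 per Mb on X to 17.9 per Mb on chromosome 11, and shared regions from 1.33 per Mb on X to 4.04 per Mb on chromosome 17. NIPBL-only regions varied less, from 5.54 per Mb on chromosome 19 to 8.32 per Mb on chromosome 5, and X, the lowest for the other classes, had 7.98 per Mb. The densities are not adjusted for the share of sequence that reads can be placed on.

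Over whole lists, the clearest separations between the proteins were in CTCF cores and GC content. A CTCF core lay in 11.2% and 8.34% of RAD21 peaks (mean 9.77% ± 2.01, SD, n = 2) and in 0.798% and 0.624% of NIPBL peaks (0.711% ± 0.123, SD, n = 2). Mean GC content was 46.0% and 47.7% for RAD21 and 55.2% and 53.0% for NIPBL. Groups did not overlap in these measures, in median width or in median distance to a start (11854 and 8526 bp for RAD21, 12491 and 17043 bp for NIPBL). The exact two-sided permutation test gave p = 0.3333 for each of the 4, the smallest value that 2 lists against 2 allow, and an adjusted p of 0.583 over 7 measures. Peaks of 2 kb or more (0.216% and 0.990% for RAD21, 0.232% and 0.211% for NIPBL), within 1 kb of a start (12.0% and 20.8%, 20.9% and 18.6%) and within 5 kb of a start (31.2% and 39.5%, 34.7% and 29.8%) overlapped between proteins, with p = 0.667 in the same exact permutation test. Several of these differences, NIPBL minus RAD21, depended on the peak threshold. With peaks of −log10 q of at least 3 the median width differed by 150 bp in place of -121 bp, the median distance by -10366 bp in place of 4577 bp, and the share within 1 kb of a start by 42.4 points in place of 3.35, with no overlap between the proteins in that share. With lists cut to equal length the share within 1 kb differed by 9.10 points, again with no overlap.

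Around gene starts, the covered bp in 10 kb windows, 5 kb on each side of a protein-coding start, were compared gene by gene. NIPBL minus RAD21 is on the log2 scale of covered bp plus 500, which understates changes of windows with little cover. Of the 7148 windows in which the lists covered at least 500 bp on average, limma called 0 at an adjusted p under 0.05 (0% called), and 876 had an unadjusted p under 0.05, 690 with more NIPBL and 186 with more RAD21. The 2 RAD21 lists differed from each other in these windows, replicate 2 lying above replicate 1 by 1.05 on the log2 scale in the mean. Fits without 1 of the RAD21 lists hold no spread between RAD21 lists, so only their effect sizes are given. With the block lists added (4 against 4) limma called 2066 windows with more NIPBL and 389 with more RAD21, of 7731. The median window had 0.42 more NIPBL, a value that was 1.16 without RAD21 replicate 2 and -0.07 without RAD21 replicate 1. Quantile normalization brought that shift to 0.01 and called 545 windows with more NIPBL and 659 with more RAD21. Both NIPBL lists lay above both RAD21 lists in 35.6% of windows and below both in 10.1%.

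The genes of lowest p are given by name although none passed the adjusted threshold. With more NIPBL, 4 of the 10 windows carried the symbol Flg, an annotation of several gene models for filaggrin, a repetitive skin barrier protein, that lie next to each other on chromosome 3. The lowest of them had 0 and 0 covered bp in the RAD21 lists and 5717 and 4860 bp in the NIPBL lists (log2 difference 3.53 ± 0.53, SE; limma adjusted p = 0.210). These windows overlap, so they are 1 site and not 4. The others were Anp32a, Igf2bp3, Muc19, Foxf2, Prr12 and Vmn1r48. At Anp32a, which encodes an acidic nuclear phosphoprotein, the RAD21 lists covered 0 and 51 bp and the NIPBL lists 3712 and 2992 bp (2.87 ± 0.53, SE; limma adjusted p = 0.308). At Foxf2, a forkhead factor gene, they covered 0 and 0 bp against 2360 and 1940 bp.

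With more RAD21 the 10 were Gm5373, Heatr7b1, Gbp2, 4930572O03Rik, Gimap8, Ceacam1, Ighv1-73, Speer4c, BC055004 and Gm17019. At Gbp2, an interferon-induced GTPase gene, the RAD21 lists covered 2374 and 3168 bp and the NIPBL lists 0 and 51 bp (log2 difference -2.63 ± 0.54, SE; limma adjusted p = 0.308). At Gimap8, a GTPase gene of lymphocytes, they covered 2408 and 4111 bp against 144 and 0 bp. At Ighv1-73, a heavy chain variable gene segment on chromosome 12, they covered 1999 and 2580 bp against 51 and 0 bp. The windows of 4930572O03Rik, Speer4c and Gm17019 lie near each other on chromosome 5 among gene copies, where the placement of reads is uncertain. All 20 windows kept their direction under each of the 12 other settings in which they were tested. They were picked by p in these same lists, which every setting reuses in whole or in part. The kept direction is therefore no independent support.

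Among gene groups, the replication-dependent histones had NIPBL at nearly every start and RAD21 mostly in replicate 2 alone. NIPBL had a peak within 1 kb of the start in both lists at 66 of 67 histone genes, where 48.1% of all protein-coding genes did. RAD21 did so in both lists at 10 of 67, where 15.4% of all genes did. NIPBL in both lists with RAD21 in neither was found at 13 of 67, where 9.99% of all genes had it, and with RAD21 replicate 2 alone at 43 of 67, where 25% had it. At Hist1h2ao, an H2A gene, the covered bp within 1 kb were 0 and 620 for RAD21 and 1507 and 1621 for NIPBL. At Hist1h4j, an H4 gene, they were 371 and 1788 for RAD21 and 745 and 575 for NIPBL, so not every histone gene had the same order. Of 58 histone windows tested, 0 were called by limma, 36 had both NIPBL lists above both RAD21 lists and 0 the reverse, with a median log2 difference of 1.12. Many windows in these clusters overlap and hold near-identical genes, so they are not independent of each other.

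Of 15 genes of the cohesin and CTCF list, 13 had a NIPBL peak within 1 kb in both lists, where 48.1% of all protein-coding genes did, and 5 had RAD21 in both, where 15.4% did. NIPBL was thus the more frequent of the proteins here as over all genes. At Smc3, which encodes a core ATPase of the ring, the covered bp within 5 kb were 297 and 320 for RAD21 and 1628 and 1406 for NIPBL. At Rad21 itself they were 0 and 256 against 1037 and 1017, and at Wapal, the gene of the factor that opens the ring, 0 and 386 against 1401 and 1215. At Nipbl they were 0 and 2355 against 2260 and 2211, so there RAD21 replicate 2 lay above both NIPBL lists. In 6 of 12 windows tested both NIPBL lists lay above both RAD21 lists and in 0 below, against 35.6% and 10.1% of all windows, with a median log2 difference of 1.12, and limma called 0.

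Of 25 early B lineage genes found of 26 listed, 20 had NIPBL within 1 kb in both lists and 11 had RAD21 in both, and 10 had both proteins, against 48.1%, 15.4% and 12.8% of all protein-coding genes. In 0 of 21 windows tested did both NIPBL lists lie above both RAD21 lists, against 35.6% of all windows, and in 2 they lay below, a share near the 10.1% of all windows. The median log2 difference was -0.24, and limma called 0. At Ebf1, a factor that specifies B cells, the covered bp within 5 kb were 417 and 5115 for RAD21 and 1493 and 1667 for NIPBL. At Pax5, which commits cells to the B lineage, they were 1132 and 5771 against 2535 and 1548. The NIPBL lists lay between the 2 RAD21 lists at both genes. Il7r, the interleukin 7 receptor gene, had 542 and 5651 bp of RAD21 and 0 and 0 bp of NIPBL, or -2.34 ± 0.78 (SE) on the log2 scale with limma adjusted p = 0.308. Rag1, the recombinase gene, had 742 and 2828 bp against 185 and 165 bp. These were the 2 genes of the list with more RAD21 in both lists.

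Of 16 genes listed for their response to loss of v-Abl signalling, 15 had NIPBL and 10 had RAD21 within 1 kb in both lists, and 10 had both proteins, against 48.1%, 15.4% and 12.8% of all protein-coding genes. At Myc the covered bp within 5 kb were 2467 and 5540 for RAD21 and 3287 and 2867 for NIPBL. At Bcl6, a gene for a transcriptional repressor of B cells, they were 4009 and 8042 against 2136 and 1813. Of 15 windows tested limma called 0, with a median log2 difference of -0.02.

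Housekeeping groups had peaks of both proteins at a larger share of starts than all genes had. NIPBL was within 1 kb in both lists at 78 of 83 cytosolic ribosomal protein genes, 29 of 31 Mediator subunit genes and 37 of 41 proteasome subunit genes, and RAD21 at 24, 10 and 13. These counts come to 90.2% to 94.0% of each group for NIPBL and 28.9% to 32.3% for RAD21, against 48.1% and 15.4% of all protein-coding genes. RAD21 in replicate 2 alone beside NIPBL in both lists was found at 50, 17 and 23 of them, or 54.8% to 60.2%, against 25.05% of all genes. Median log2 differences over the windows tested were 0.22, 0.19 and 0.30, beside 0.42 over all windows, and all of these medians rest on both RAD21 lists.

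Within 1 kb of the start, olfactory receptor genes had NIPBL in both lists at 5 of 1113 and RAD21 at 7, and Hox genes, which pattern the body axis, had each protein at 4 of 40, against 48.1% and 15.4% of all protein-coding genes. Within 5 kb the Hox counts were 20 of 40 for NIPBL and 17 of 40 for RAD21, against 56.5% and 34.3% of all genes. Clustered protocadherin genes, neural adhesion genes whose promoters hold CTCF sites, had RAD21 within 1 kb in both lists at 11 of 24 and NIPBL at 0, and within 5 kb RAD21 at 12 and NIPBL at 10. Within 1 kb, RAD21 in both lists with NIPBL in neither was found at 10 of 24, where 1.52% of all genes had it. At Pcdhb14 the covered bp within 1 kb were 228 and 443 for RAD21 and 0 and 0 for NIPBL, and at Pcdhb12 they were 122 and 263 against 0 and 0.

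The cells were checked against marker genes by the same count. All 9 pro-B markers had NIPBL within 1 kb of the start in both lists and 4 had RAD21 in both, against 48.1% and 15.4% of all protein-coding genes. NIPBL in both lists was found at 2 of 11 T cell markers, 3 of 10 myeloid and 1 of 8 erythroid markers, and RAD21 in both at 1 in each of these 3 lists. Within 5 kb NIPBL in both lists was found at 9 of 9 pro-B, 6 of 11 T cell, 7 of 10 myeloid and 3 of 8 erythroid markers, against 56.5% of all genes. Peaks show where protein was mapped and not whether a gene was expressed.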

How the data were processed

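RAD21 and NIPBL were mapped by ChIP-seq, 2 libraries each, in cells fixed in 1% formaldehyde, with 5 ug of antibody per sample, per the labels' protocols. The series has 18 samples, 4 of them inputs that were not used here. The build mm9 and the tools Bowtie2 2.2.8, SAMtools 1.8 and MACS2 are named in the submitters' processing notes, while a version and settings of MACS2 are not given in the sources used here. Each deposited list is a broadPeak table of 9 columns, called per library. Peak names in the control lists say that a control library was used. The authors' fold of a peak is a ratio, enrichment over background, and was used only to rank peaks within a list. The authors' −log10 p and −log10 q were used for the alternatives, and the deposited score column was not used. Read depth is unknown, so no interval that needs it is given.

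Regions, classes, positions and matches were computed on NCBIM37 (mm9) with GENCODE vM1, with Python 3.11.15, numpy 2.4.6, pandas 2.3.3 and scipy 1.17.1, and drawn with matplotlib 3.10.9. No peak ran past a chromosome end. Copies were counted as exact matches of 24 bases on both strands, a count tested against plain string searches. Covered bp in windows around 22350 protein-coding starts were compared as log2 of bp plus 500 with limma 3.58.1 under R 4.3.3. The test was two-sided, with Benjamini-Hochberg over windows with a mean of at least 500 bp and adjusted p under 0.05. The fit was first run on simulated windows with a known change. Those spread less between lists than the RAD21 lists did, so they do not show its power here. For whole lists, 7 measures were compared with an exact two-sided permutation test. Classes, widths and ranks carry no test, since the calls define them. Named genes were the 10 per direction of largest difference among called windows, or of lowest p where fewer than 10 were called; named sites were the 6 per class of highest mean percentile of fold, 1 per nearest gene and none on chromosome 18. Alternatives were the stricter −log10 q of at least 3, 50% overlap, lists matched in length (58837 peaks), merging within each protein, protein-coding starts only, 1 kb windows, 100 bp added, no filter, quantile normalization, a replicate block, the block lists added and leaving out each list. The members, gene lists and tests were chosen with earlier results of these data known. Sites near protein-coding starts, the printed sequences and the split by copies were chosen after seeing the data.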

Additional observations from a re-analysis of the deposited data

How the results depend on the processing

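The CTCF core was rarer in NIPBL-only than in RAD21-only and shared regions under every setting run, while class sizes and positions moved with the threshold and the library; the cause was not tested. RAD21-only, NIPBL-only and shared regions numbered 30961, 17620 and 6101. At −log10 q of at least 3 NIPBL-only had 4427 and shared 1658 regions, and without repeated middles, a setting chosen after seeing the data, NIPBL-only had 5772. Leaving out 1 list gave 32450 to 58848, 17896 to 72991 and 5612 to 14129 regions.

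The share of RAD21-only regions within 5 kb of a start was 31.4% at the stricter threshold, 14.9% for protein-coding starts, 30.3% with peaks merged within each protein, 30.3% at 50% overlap and 27.7% to 30.2% without 1 list. For NIPBL-only it was 80.1%, 18.6%, 43.3% and 28.6% in that order, 37.3% with lists cut to equal length (58837 peaks), 64.7% without repeated middles and 20.9% to 44.6% without 1 list. For shared regions it was 78.0% (stricter), 65.9% (equal length), 47.6% (protein-coding), 63.0% (merged), 63.2% (no repeated middles) and 52.8% to 72.6% without 1 list. The share with a CTCF core in RAD21-only regions was 21.5% (stricter), 17.7% (equal length), 17.6% (no repeated middles) and 9.32% to 16.4% without 1 list. In NIPBL-only regions it was 0.226% (stricter), 0.185% (merged), 0.243% (no repeated middles) and 0.0372% to 0.184% without 1 list, and in shared regions 12.2% (stricter) and 4.78% to 12.5% without 1 list.

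NIPBL minus RAD21 over whole lists turned at the stricter threshold for median width (150 bp), peaks of 2 kb or more (0.236 points), peaks within 5 kb of a start (30.8 points) and median distance (-10366 bp), and with lists cut to equal length for peaks within 5 kb (1.53 points). Without 1 list the differences ran from -0.768 to 0.00572 points for 2 kb or more, from -1.02 to 7.72 points within 1 kb and from -7.30 to 1.04 points within 5 kb.

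Against 0 and 0 windows called with more NIPBL and more RAD21, quantile normalization gave 545 and 659, the stricter threshold 574 and 66, the added block lists 2066 and 389, and leaving out 1 list 0 to 4759 and 0 to 1100, where limma takes the lone list to vary like the others. Limma called 0 in both directions without NIPBL replicate 1 (47 at an unadjusted p under 0.05) and without NIPBL replicate 2 (84). For the 20 named windows, 126 of 221 values under alternatives stayed above the threshold and 95 passed it, all in the same direction. The named windows were picked in these same lists, so their kept direction is no independent check. With a replicate block limma called 5 and 2 windows. Lists with the same number deviated together with a correlation of only 0.02 over 7148 windows. The NIPBL lists differed by 0.14 on the log2 scale in the mean, which does not enter the correlation. Little of the deviation window by window was thus shared, which does not tell whether the lists were made in pairs. The labels do not say, and the main fit used no pairing. Read depth is unknown, so which absent calls reflect depth could not be tested.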
